A study of Mus musculus with 6 samples.

Results

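The genes described here are those of the interferon response and of its signalling chain: interferon-inducible genes, interferon regulatory factors (Irf), signal transducers and activators of transcription (Stat), the interferon receptors, the kinases Jak1 and Jak2, and the feedback inhibitors Socs1, Socs3 and Usp18. They were chosen by name from the array's annotation, as probe sets of a single gene whose symbol begins with Ifi or Oas, or with Irf, Stat, Gbp or Mx and a digit, or is one of the further pathway symbols Isg15, Isg20, Usp18, Igtp, Irgm1, Iigp1, Socs1, Socs3, Jak1, Jak2, Ifngr1, Ifngr2, Ifnar1 and Ifnar2. The choice gave 62 probe sets of 52 genes, out of 10833 single-gene probe sets of 8251 genes. Irf2bp1, a protein that binds Irf2, was taken in by its name only.

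RNA of the mouse tibialis anterior, the muscle that lifts the foot, was measured 48 h after exercise in a non-invasive model. One pool came from legs that made 50 eccentric contractions, in which the muscle is stretched while it is active and which injure fibres, and another from legs that made 50 isometric contractions, in which it works at a fixed length. Control RNA was from the contralateral side, where the legs made only the contractions needed to read isometric torque, and the labels do not say which of the exercised animals these legs belonged to. Each pool held RNA of 4 animals and was divided between 2 Affymetrix MGU74Av2 arrays, lettered A and B, so a pool is 1 biological sample and its arrays are technical repeats: no p-value is given, and differences between animals could not be measured. The mice carry no genetic change named in the labels, and strain, sex and age are not stated there.

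Interferons are cytokines that cells release on sensing viruses or damage. Type I interferons bind the receptor chains Ifnar1 and Ifnar2, and interferon gamma binds Ifngr1 and Ifngr2. Receptor-bound Jak kinases then phosphorylate Stat proteins, which enter the nucleus, either with Irf9 on the interferon-stimulated response element (ISRE) or as Stat dimers on the gamma-activated sequence (GAS). The genes they switch on include antiviral effectors, guanylate-binding proteins, further Irf factors and the Socs inhibitors that shut the chain off. In injured muscle the same Stat proteins also serve other cytokines, such as interleukin 6 (Stat3) and interleukin 4 (Stat6), and monocytes and macrophages, which enter the tissue, express many of these genes.

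The 2 DNA elements can be read in promoters of the members, and a few are shown because they mark genes on which the results turn: Isg15, Irf8, Socs3 and Socs1, each with a pair of pools whose arrays did not overlap, Ifit1 and Gbp2, classical interferon targets near or below the detection floor, and Irf1, a Stat target that was present at like signal in all pools. The sequences are RefSeq promoter bases of assembly GRCm38.p6, written 5′ to 3′ along the gene's strand and ending before the transcription start. Capitals mark matches to the ISRE (TTTCNNTTTC, or GAAANNGAAA on the other strand) or to the GAS (TTCNNNGAA, which reads the same on both strands).
Isg15, ISRE, chr4:156200855-156200916, minus strand: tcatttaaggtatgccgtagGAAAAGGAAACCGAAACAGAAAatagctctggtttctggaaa
Ifit1, ISRE, chr19:34640765-34640833, plus strand: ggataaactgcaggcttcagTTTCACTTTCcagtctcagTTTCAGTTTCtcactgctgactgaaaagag
Gbp2, ISRE, chr3:142620584-142620633, plus strand: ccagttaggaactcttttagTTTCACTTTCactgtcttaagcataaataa
Socs1, ISRE, chr16:10785584-10785639, minus strand: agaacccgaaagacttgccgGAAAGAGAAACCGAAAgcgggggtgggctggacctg
Irf8, GAS, chr8:120736167-120736233, plus strand: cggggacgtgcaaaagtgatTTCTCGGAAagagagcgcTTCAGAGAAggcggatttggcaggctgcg
Socs3, GAS, chr11:117969492-117969540, minus strand: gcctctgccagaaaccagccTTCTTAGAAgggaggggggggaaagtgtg
Irf1, GAS, chr11:53769904-53769952, plus strand: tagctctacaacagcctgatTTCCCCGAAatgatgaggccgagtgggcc
The run of capitals in Isg15 holds 3 overlapping ISRE matches and that in Socs1 holds 2, while Ifit1 has 2 separate ISRE matches and Irf8 has 2 separate GAS matches.

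Promoters of 45 of the 52 genes were in the RefSeq table, each with 250 bases before the start and 50 after it. An ISRE match was present for 16 of the 45 (35.6%), against 3.99% of all 27025 genes in the table. A GAS match was present for 14 of the 45 (31.1%), against 9.55% of all genes. Gbp7, Igtp and Ifitm3 had both elements. These shares describe letters in a window and do not show that a factor binds there.

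**Figure D1:**
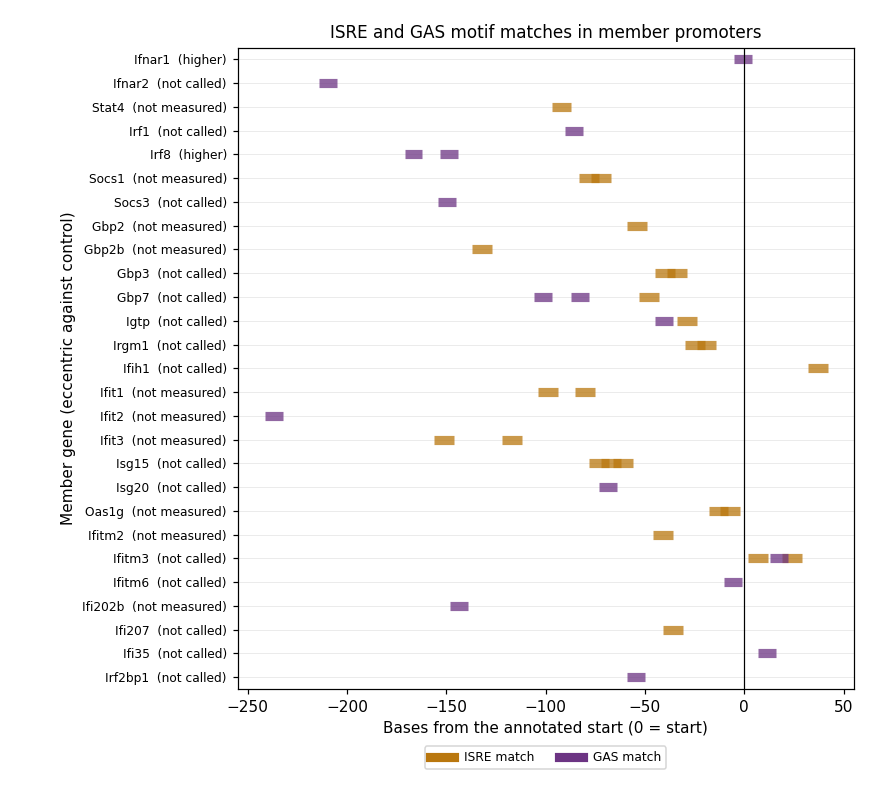
Positions of ISRE and GAS letter matches in the promoters of the member genes that hold one; the horizontal axis is the distance in bases from the transcription start and each line is 1 promoter. Most ISRE matches lie in the bases just before the start, as in Isg15 and Gbp2.

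The 6 arrays had trimmed means of 500.3, medians of 187 to 197 and 59.2% to 61.2% of probe sets above the floor, a signal of 121 below which values were not ordered. A gene counts as measured in a comparison when it passes that floor on both arrays of either pool. Differences are given as the mean log2 signal of one pool minus that of another, and the error is their range over the 4 pairings that 2 arrays a pool allow. A gene was called higher or lower when this difference was at least 1, which is 2-fold, and all 4 pairings had the same sign. Of the 52 genes, 31 were above the floor on all 6 arrays and 39 were measured in at least 1 comparison. Between the arrays of a pool, the log2 signals of the members differed with an SD of 0.38 in the control, 0.39 for the eccentric pool and 0.51 for the isometric pool. Isometric array B stood apart in its 18S ribosomal RNA control, at a signal of 19881 against 1186 on isometric array A.

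The tissue label was checked against fibre and blood cell genes. Of 13 muscle fibre markers such as Ckm and Acta1, 12 were measured, and Myh2, the myosin of a fast fibre type, was below the floor on all 6 arrays. The summed signal of 18 macrophage and monocyte markers was 10578 and 11156 on the control arrays, 33437 and 33648 on the eccentric arrays and 18266 and 18290 on the isometric arrays, so the exercised pools did not overlap the control or each other. Aif1 alone of these 18 was below the floor throughout. In whole muscle, more cells of a type and more RNA per cell cannot be told apart.

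After eccentric contractions, 4 members rose at least 2-fold over the control: Ifi30, Ifnar1, Irf8 and Ifitm10. That is 4 of 37 measured members (10.8%), where 5.16% of the 5682 genes measured in this comparison rose. No member fell 2-fold, where 1.06% of all genes fell. Another 15 members were not measured here and are not counted. The genes that rose were a lysosomal reductase, a receptor chain, a myeloid transcription factor and a membrane protein.

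**Figure D2:**
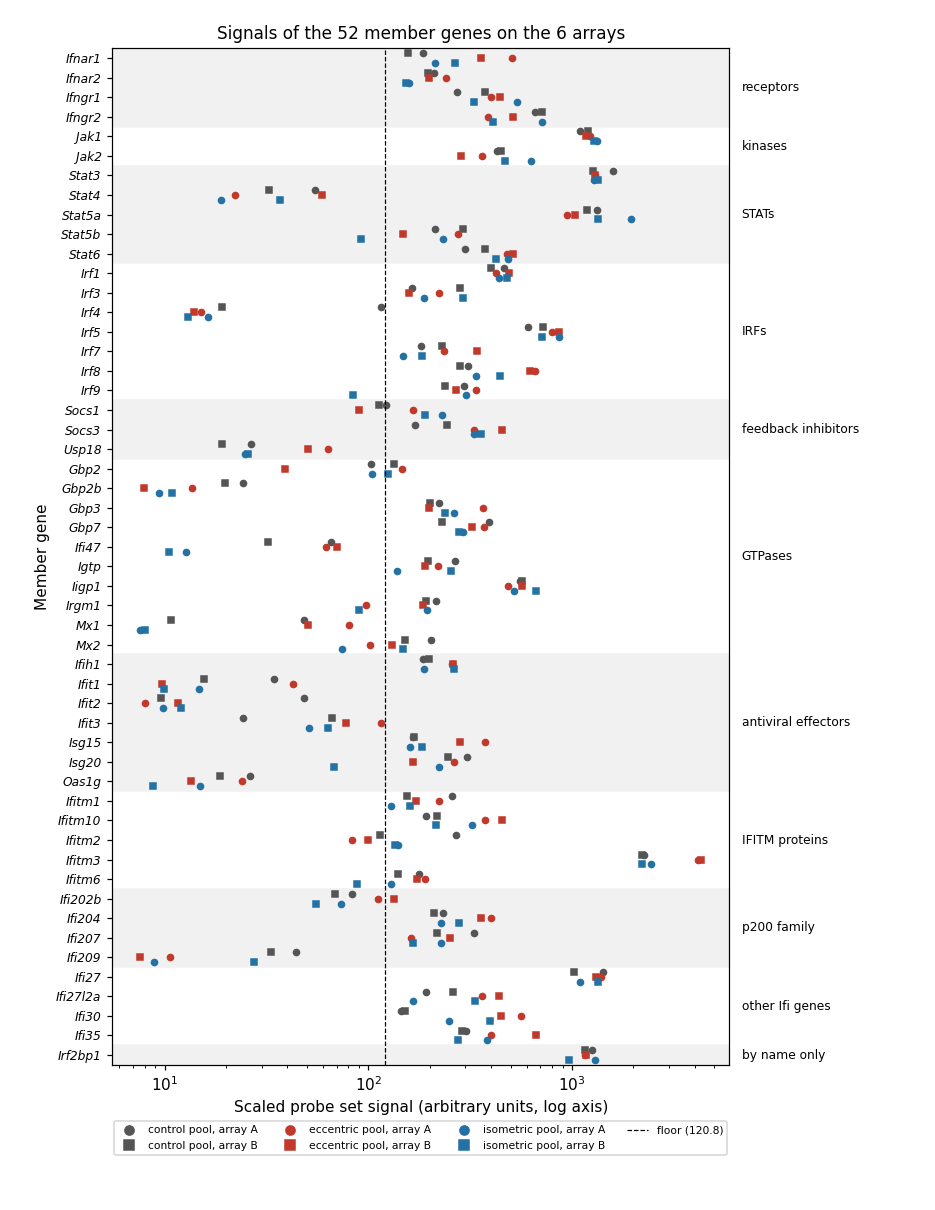
Signal of each of the 52 members on the 6 arrays (array signal in arbitrary units on a log axis, 1 point an array, coloured by pool, with circles for array A and squares for array B), with the floor at 121 marked. The eccentric points of Ifi30, Ifnar1, Irf8 and Ifitm10 lie above both control points, and those of Irf1 and Jak1 overlap the control points.

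Ifi30, a thiol reductase of lysosomes that opens disulphide bonds of antigens, had the largest difference of any member. Its signals were 145 and 152 in the control pool, 560.2 and 449 after eccentric and 248 and 395 after isometric contractions. Both exercised pools lay above the control on every array, and the eccentric arrays lay above the isometric ones. Eccentric minus control was 1.76 (pairings 1.56 to 1.95), 3.38-fold.

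Among the receptors, Ifnar1, the first chain of the type I interferon receptor, had signals of 186 and 156 in the control, 509.9 and 357 after eccentric and 213 and 268 after isometric contractions. It rose by 1.32 (0.94 to 1.71) after eccentric contractions, and again no control array reached an exercised one. Its partner chain Ifnar2 differed by 0.11 from control, with overlapping arrays. The interferon gamma receptor chains went different ways: Ifngr1 was 272 and 376 in the control and 401 and 443 in the eccentric pool, a difference of 0.40 (0.09 to 0.71). Ifngr2 was 657 and 716 in the control and 387 and 514 in the eccentric pool, a difference of -0.62 (-0.89 to -0.35), the lowest of any member. Neither reached 2-fold, though in both the arrays of the pools did not overlap.

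The kinases Jak1 and Jak2 pass the receptor signal on. Jak1 was 1089.8 and 1193 in the control and 1224 and 1166 in the eccentric pool, a difference of 0.07 with overlapping arrays. Jak2 was 426 and 449 in the control and 362 and 284 in the eccentric pool, -0.45 (-0.66 to -0.24), so its eccentric arrays both lay below the control.

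None of the 4 Stat genes measured was called. Stat6, which carries interleukin 4 and 13 signals, was 297 and 374 in the control, 482 and 515 after eccentric and 484 and 426 after isometric contractions, with eccentric minus control at 0.58 (0.37 to 0.79). Both exercised pools lay above the control on every array. Stat5a, which serves growth hormone and other cytokines, was 1331 and 1187 in the control and 949 and 1029.9 in the eccentric pool, -0.35 (-0.49 to -0.20). This probe set carries shared probes by its name, and a second Stat5a probe set gave -0.07 with overlapping arrays. The near relative Stat5b differed by -0.30 (-0.98 to 0.37), and Stat4 was below the floor on all 6 arrays.

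Stat3, the main carrier of interleukin 6 signals, gave no single answer. Its brighter probe set was 1587 and 1266 in the control and 1295 and 1303 in the eccentric pool, -0.13 (-0.29 to 0.04). The other probe set was 1056 and 849 in the control and 1117 and 1222 in the eccentric pool, 0.30 (0.08 to 0.53), with arrays that did not overlap. The 2 probe sets thus disagree in sign.

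Of the Irf factors, Irf8, which directs the development of monocytes and macrophages, was 309 and 283 in the control, 662 and 622 after eccentric and 339 and 443 after isometric contractions. It rose by 1.12 (1.01 to 1.23), and its arrays agreed closely within the control and the eccentric pool. Irf5, a factor of inflammatory gene expression in macrophages, was 609.8 and 721 in the control and 799 and 864 in the eccentric pool, 0.33 (0.15 to 0.50). Irf7, which amplifies type I interferon production, was 181 and 232 in the control and 236 and 343 in the eccentric pool, 0.47 (0.03 to 0.92), on a probe set with shared probes. Its second probe set had an array below the floor in every pool and was not measured. The general target Irf1 was 465 and 399 in the control, 424 and 489 after eccentric and 438 and 477 after isometric contractions, all 3 pools overlapping. Irf3, the constitutive factor that starts interferon gene expression, and Irf9, the Stat partner, differed by -0.19 and 0.19, with overlapping arrays. Irf4, a lymphocyte factor, was below the floor on all 6 arrays.

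The membrane proteins of the Ifitm family, some of which block virus entry, split. Ifitm3 was 2248 and 2220.2 in the control, 4181 and 4315 after eccentric and 2446 and 2214 after isometric contractions, and eccentric minus control was 0.93 (0.90 to 0.96), the narrowest range among the genes past 1.5-fold. Ifitm10 was 193 and 217 in the control, 374 and 453 after eccentric and 324 and 214 after isometric contractions. Its difference of 1.01 (0.78 to 1.23) was just inside the 2-fold rule, and that of Isg15, at 0.97, was just outside it. The call for Ifitm10 was lost with other scaling (0.98 both with one median for all arrays and with quantile normalization), without control A (0.92) and without eccentric B (0.87). Ifitm6 and Ifitm1 differed by 0.21 and -0.03, with overlapping arrays, and Ifitm2 was not measured in this comparison.

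Among the antiviral effectors, Isg15, a ubiquitin-like protein attached to other proteins in the interferon response, stood out. It was 165 and 168 in the control, 375 and 283 after eccentric and 161 and 184 after isometric contractions. The eccentric arrays lay above all 4 others, at 0.97 (0.75 to 1.18) over control. Ifih1, a sensor of double-stranded RNA in the cytoplasm, was 185 and 199.6 in the control and 257 and 259 in the eccentric pool, 0.43 (0.37 to 0.49). Isg20, an RNA-degrading enzyme, differed by -0.39 with overlapping arrays.

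The other antiviral effectors were below the floor. Ifit1, Ifit2, Ifit3 and Oas1g were below the floor on all 6 arrays, with a highest signal of 115 for Ifit3 on eccentric array A. The same was true of Mx1, Gbp2b, Ifi47 and Ifi209, and of Usp18, an enzyme that removes Isg15 from proteins. Usp18 read 26.6 and 19.2 in the control, 63.3 and 50.8 after eccentric and 24.9 and 25.7 after isometric contractions, where values have no order. Gbp2 and Ifi202b passed the floor on single arrays only. At these signals a difference was not detectable, which does not show that the transcripts are absent.

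The GTPases comprise the guanylate-binding and immunity-related proteins, which attack vacuoles that hold microbes, and the dynamin-like antiviral proteins Mx1 and Mx2. Of these 10 genes 6 were measured and none was called. Their differences ran from -0.48 for Mx2 to 0.36 for Gbp3. Mx2 was 203 and 152 in the control and 102 and 131 in the eccentric pool (-0.75 to -0.21 over the pairings, with eccentric A set to the floor). Irgm1 was 214 and 192 in the control and 97.1 and 185 in the eccentric pool, -0.44 (-0.83 to -0.05), again with eccentric A at the floor, so in both genes the eccentric arrays lay below the control. Gbp7, Igtp and Iigp1 differed by 0.20, -0.16 and -0.11, with overlapping arrays. A second Iigp1 probe set, with shared probes by its name, gave -0.48 (-0.98 to 0.02), also with overlapping arrays.

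Of the remaining interferon-inducible genes, Ifi35, a cytoplasmic partner of Nmi, was 302 and 289.5 in the control and 402 and 667 in the eccentric pool, 0.81 (0.41 to 1.20). Ifi27l2a, a small membrane protein, was 192 and 261 in the control and 364 and 439 in the eccentric pool, 0.84 (0.48 to 1.19). Ifi204, a nuclear protein of the p200 family found in myeloid cells, was 234 and 209.8 in the control and 399.9 and 358 in the eccentric pool, 0.77 (0.61 to 0.93), on a probe set whose name marks probes shared with related transcripts. It has 2 further probe sets, neither of them measured, and the mean over all 3 gave 0.30. In these 3 genes the eccentric arrays lay above the control without reaching 2-fold. Ifi207, another p200 gene read by shared probes, and Ifi27 differed by -0.41 and 0.16, and Irf2bp1 by -0.05, all with overlapping arrays.

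Socs3, the inhibitor induced through Stat3, was the only inhibitor measured in this comparison. It was 169.6 and 244 in the control, 331 and 456 after eccentric and 329.9 and 357 after isometric contractions, 0.93 (0.43 to 1.43) for eccentric minus control. A second probe set was below the floor in the control (28.0 and 14.6) and at 143 and 175 in the eccentric pool. The brighter probe set carries shared probes by its name, and both put the eccentric arrays above the control.

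With a 1.5-fold rule, 10 of the 37 measured members (27%) were higher after eccentric contractions, adding Ifi204, Ifi27l2a, Ifi35, Ifitm3, Isg15 and Socs3, where 12.2% of all genes were. One member, Ifngr2, was lower (2.70%), where 7.25% of all genes were. Counting only whether arrays overlapped, 15 members lay wholly above the control (40.5%, all genes 30.8%) and 5 wholly below (13.5%, all genes 31%). The median over the 37 was 0.19, with -0.03 to 0.29 over the pairings, beside -0.02 for all genes. With no filter on low values the median was 0.03, and it was 0.062 without control B and 0.11 without eccentric A.

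**Figure D3:**
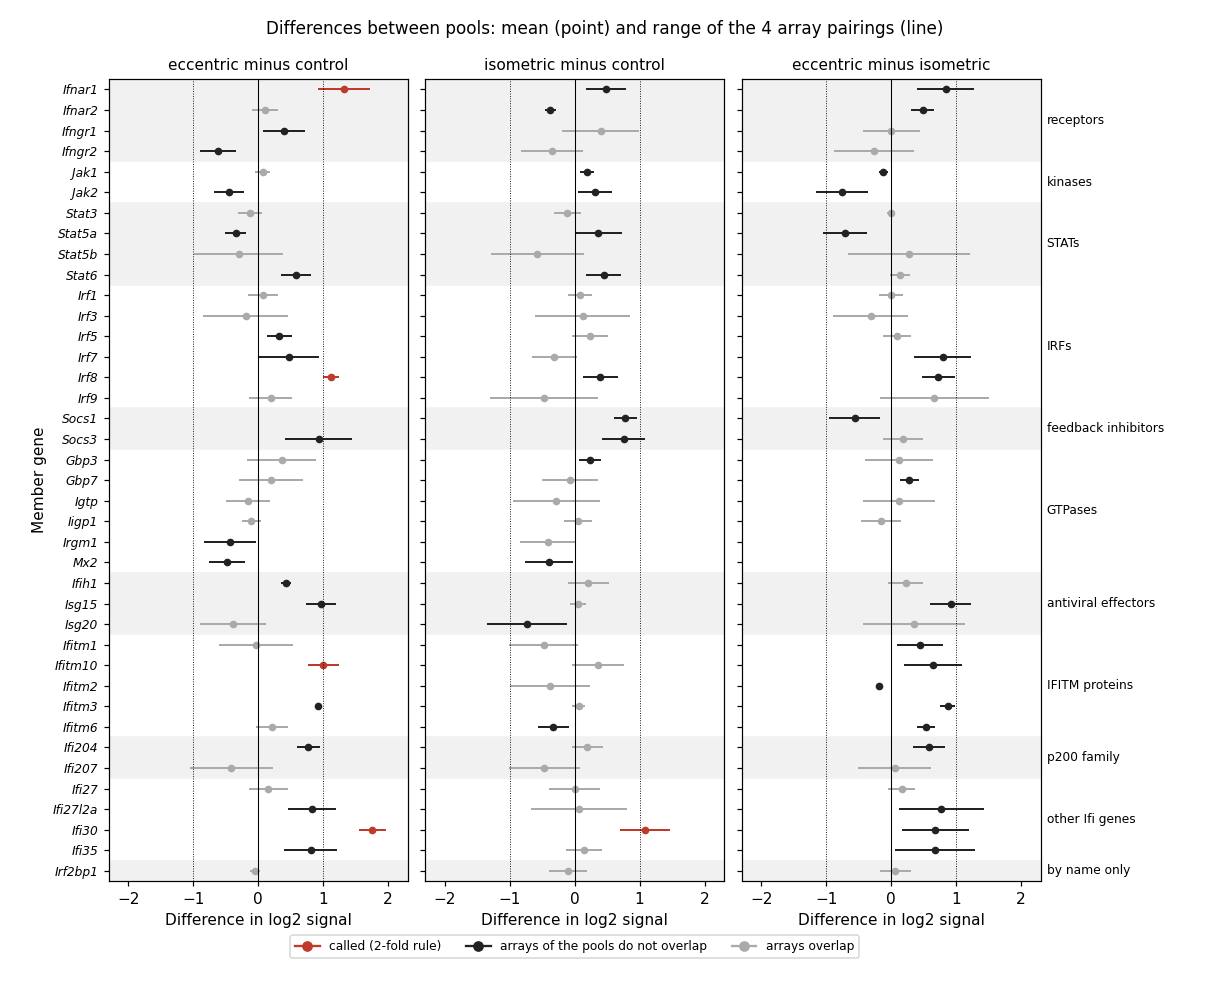
Difference in mean log2 signal for each measured member in the 3 comparisons (points), with the range over the 4 array pairings (bars) and lines at 2-fold. In eccentric minus control 4 genes pass 1 on the log2 scale, in isometric minus control Ifi30 alone does, and in eccentric minus isometric none does.

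After isometric contractions, only Ifi30 rose 2-fold over the control among 39 measured members (2.56%), where 0.915% of 5574 genes rose. None fell, where 0.323% of all genes fell. Both comparisons with control use the same 2 control arrays, so their values are set side by side and are not independent. Ifi30 was 1.08 (0.71 to 1.44) over control against 1.76 after eccentric contractions. The call rests on isometric array B (395): it was 0.74 without that array, 0.71 with the floor at the 50th percentile, and 0.71 without control A and isometric B.

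The Socs inhibitors came next. Socs1, which blocks Jak kinases, was 123 and 113 in the control, 166 and 90.5 after eccentric and 232 and 189 after isometric contractions. Its isometric arrays were the highest of the 6, and isometric minus control was 0.78 (0.62 to 0.94), with control B set to the floor. Socs3 was 0.75 (0.43 to 1.07) over control, and without control B it passed 2-fold. Irf8 and Ifnar1, both called after eccentric contractions, were at 0.39 (0.14 to 0.65) and 0.49 (0.20 to 0.78) here, above the control on both arrays but short of 2-fold. Stat6 was at 0.45 (0.19 to 0.70), Jak2 at 0.31 (0.06 to 0.56) and Stat5a at 0.36 (0.01 to 0.71), and Jak1 and Gbp3 at 0.19 and 0.24, all with isometric arrays above the control.

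Isg15, Ifitm3 and Ifi27l2a, past 1.5-fold after eccentric contractions, overlapped the control here. Isg15 was at 0.05 (-0.06 to 0.16), Ifitm3 at 0.06 (-0.02 to 0.14), and Ifi27l2a at 0.07 (-0.66 to 0.79), the last with isometric arrays more than 2-fold apart. On the low side, Isg20 was 305 and 246 in the control and 223 and 67.8 in the isometric pool, -0.74 (-1.34 to -0.14), with isometric B at the floor. Ifnar2 was 209 and 196 in the control and 159 and 153 in the isometric pool, -0.38 (-0.45 to -0.31), and Ifitm6 and Mx2 also lay below the control on both arrays, at -0.33 and -0.40. Irf9 was 296 and 239 in the control and 304 and 84.6 in the isometric pool, so its value rests on which isometric array is read. Without isometric array A, Irf9, Isg20 and Stat5b were called lower, 3 members in place of 0. Over all genes, 65 of 5824 were then called lower, in place of 18 of 5574. These 3 calls rest on isometric array B alone, where each gene was below the floor (Stat5b at 92.3).

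With the 1.5-fold rule, 3 members were higher (7.69%, all genes 3.89%), namely Ifi30, Socs1 and Socs3. Isg20 was lower (2.56%, all genes 2.31%). By overlap of arrays, 10 members lay above the control (25.6%, all genes 18.9%) and 4 below it (10.3%, all genes 18.4%). The median over the 39 was 0.06 (0.02 to 0.13 over the pairings) beside -0.01 for all genes.

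The direct comparison of the exercised pools uses no control array. No member reached 2-fold either way among 37 measured, where 1.73% of 5622 genes were higher after eccentric contractions and 0.676% lower. With the 1.5-fold rule, 9 members were higher after eccentric contractions (24.3%, all genes 7.7%): Isg15, Ifitm3, Ifnar1, Irf7, Ifi27l2a, Irf8, Ifi30, Ifi35 and Ifitm10. Jak2 and Stat5a were lower (5.41%, all genes 4.94%). By overlap of arrays, 14 members were higher (37.8%, all genes 28.5%) and 5 lower (13.5%, all genes 25.1%). The median over the 37 was 0.18 (0.15 to 0.28) beside 0.02.

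Isg15 had the largest difference between the exercised pools, 0.92 (0.62 to 1.22), followed by Ifitm3 at 0.87 (0.77 to 0.96) and Ifnar1 at 0.84 (0.41 to 1.26). Irf7 was at 0.79 (0.37 to 1.21), and at 0.45 as the mean over its probe sets, the second of which was not measured. Ifi30 and Irf8, also above control after isometric contractions, were still 0.68 and 0.73 higher after eccentric ones. Ifi204 was at 0.58, Ifitm6 at 0.54, Ifnar2 at 0.49, Ifitm1 at 0.45 and Gbp7 at 0.28, all with arrays that did not overlap.

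In the other direction, Jak2 was 362 and 284 after eccentric and 629 and 468 after isometric contractions, -0.76 (-1.14 to -0.37), with the control arrays in between. Stat5a was 949 and 1029.9 after eccentric and 1939 and 1343 after isometric contractions, -0.71 (-1.03 to -0.38), and its second probe set gave -0.41 (-0.70 to -0.12). Socs1 was at -0.56, Jak1 at -0.12 and Ifitm2 at -0.19, the last with both eccentric arrays at the floor. Single arrays weigh on the count of 0. Without isometric B, 4 members were called higher (Ifi27l2a, Ifi30, Ifnar1 and Isg15), and without eccentric A 2 (Ifi35 and Irf7). Without eccentric B, 2 were (Ifnar1 and Isg15), and without isometric A 1 (Irf9). Over all genes, the calls were then 133 of 5808, 119 of 5809, 123 of 5816 and 154 of 5864, in that order. With all arrays they were 97 of 5622. Leaving out an array makes the rule looser, since fewer pairings must agree in sign and fewer arrays must pass the floor.

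**Figure D4:**
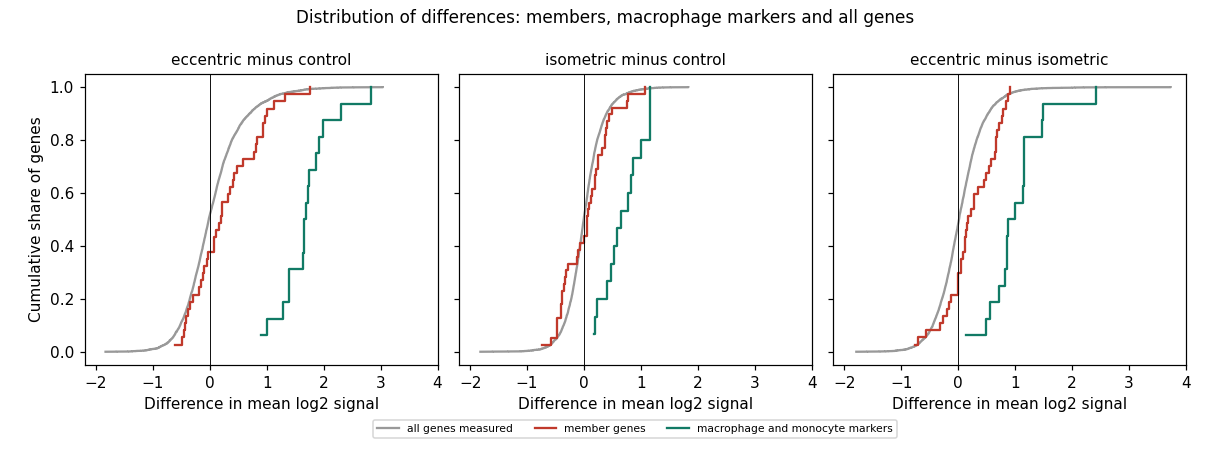
Cumulative share of genes by difference in mean log2 signal, for the measured members, the macrophage and monocyte markers and all measured genes, in the 3 comparisons. The members' curve lies between the other curves over much of its range in eccentric minus control, where the medians are 0.19 for the members, 1.66 for the markers and -0.02 for all genes.

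Values that moved with these results were read from marker lists and RNA controls, and their part in the results was not tested. In eccentric against control, 14 of 16 measured macrophage and monocyte markers rose, with a median of 1.66, and in isometric against control 4 of 15, with a median of 0.65. Between the exercised pools 8 of 16 were higher after eccentric contractions, with a median of 0.94. Over all measured genes, the shares called higher were 5.16%, 0.915% and 1.73%, in the same order of comparisons. Of the 12 measured fibre markers none was called, and their median was -0.28 after eccentric contractions. All pairings were lower for 11 of them, where they were lower for 31% of all genes. Of 6 measured neutrophil markers S100a8 and S100a9 rose after eccentric contractions, Csf3r, Elane, Mpo and Camp were at -0.88, -0.44, -0.08 and 0.02, and the median was -0.03. Ngp, Mmp8 and Mmp9 were below the floor on all 6 arrays, as were 8 of 12 T and NK cell markers, Cd3e, Cd3g, Cd3d, Cd8a, Cd8b1, Cd2, Gzma and Prf1. The 2 T and NK cell markers measured were Thy1, which rose after eccentric contractions by 1.04, and Cd4, which was at -0.56 after eccentric and fell by 1.36 after isometric contractions. The mean log2 ratio of the 3′ to the 5′ actin probe set, a sign of RNA integrity, was 0.04 in the control, 0.44 after eccentric and 0.21 after isometric contractions.

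The wider pathway was read from lists chosen with earlier results of these data known. Beside the list counts, 5.16% of all measured genes were called higher and 1.06% lower in eccentric against control. The shares were 0.915% and 0.323% in isometric against control, and 1.73% and 0.676% in eccentric against isometric. Of 9 interferon genes on the array only 3 were measured and none was called in any comparison. Ifng and Ifnb1 were below the floor on all 6 arrays. Of 16 cytokines that signal through Stat proteins, none was called among 5 measured (6 in isometric against control), and Il6 was below the floor on all 6 arrays.

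Receptors of other cytokines did differ. Il4ra, the interleukin 4 receptor, was 45.6 and 96 in the control, 568 and 482 after eccentric and 211 and 194 after isometric contractions, and rose by 2.12 over the control and 1.37 over the isometric pool. Both control arrays were below the floor, so the first is a lower bound. Il10rb, a shared chain of interleukin 10 and type III interferon receptors, rose by 1.60 after eccentric contractions, and Ghr, the growth hormone receptor, fell by 1.48. These were 2 higher and 1 lower of 14 measured receptors and kinases, and after isometric contractions only Csf3r was called, at -1.09. Of the 10 measured inhibitors, Ptpn1, a phosphatase that acts on Jak kinases, rose by 1.06 after eccentric contractions.

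Other target lists gave mixed counts. Of 20 measured further interferon-stimulated genes only Slfn2 rose after eccentric contractions, by 1.56, and the list's median was 0.07. After isometric contractions none of 18 was called and the median was -0.25. Of 10 genes of antigen processing, Psmb8, an immunoproteasome subunit, and H2-D1, a class I molecule, rose after eccentric contractions, by 1.09 and 1.15, and all 10 lay above the control in all pairings, where 30.8% of all genes did, with a median of 0.45. Ccl2, Ccl7 and Ccl8, chemokines that draw monocytes, rose by 2.03, 2.02 and 1.64 (3 of 4 measured), while Cxcl9, Cxcl10 and Ccl5 were below the floor on all 6 arrays. After isometric contractions Ccl2 rose by 1.58.

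Of 14 measured Stat3 target genes, 4 rose after eccentric contractions: Saa3 by 2.13, Il4ra, Timp1 by 1.67 and Junb by 1.42. Over all genes, 5.16% rose in that comparison. Il4ra is the same gene that was counted among the receptors. After isometric contractions Junb and Fos rose, by 1.66 and 1.19, and Saa3 fell by 1.61. Of 4 measured sensors and adaptors, Myd88, the adaptor of most Toll-like receptors, rose by 1.07 after eccentric contractions. In the direct comparison of the exercised pools, the called genes of these lists other than Il4ra were Saa3 at 3.73, Slfn2 at 2.05, Ccl7 at 1.04, Timp1 at 1.04, Ccl8 and Myd88, all higher after eccentric contractions. Both isometric arrays of Ccl8 (62.0 and 57.8) and 1 isometric array each of Saa3, Slfn2 and Myd88 were below the floor, so these values are limited by it.

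By promoter letters, 0 of 8 measured members with an ISRE match and 4 of 24 without one rose 2-fold after eccentric contractions, where 5.16% of all genes rose, and 8 more with a match were not measured. These counts are too few to set against each other. Of 12 measured members with a GAS match, 2 rose, Ifnar1 and Irf8, and of 20 without one 2 rose, Ifi30 and Ifitm10. The median eccentric minus control was 0.28 with an ISRE match and 0.15 without, and 0.21 with a GAS match and 0.13 without.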

How the data were processed

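Total RNA of 3 muscle pools was hybridised to 6 Affymetrix MGU74Av2 arrays, 2 arrays a pool, per the labels. For every array the authors deposited a linear intensity for each probe set. The trimmed mean (2% off each end) is 500.3 on each array, as scaling to one level gives. The software and background correction were not stated in the labels. A shift shared by most genes would not show after such scaling.

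From these intensities, each array was scaled to one 2%-trimmed mean (largest factor 1.00002), values below the 40th percentile (120.8) were set to that floor, and log2 was taken. Of 12488 probe sets, 10833 had 1 gene in the platform annotation, 396 had several, 1193 none and 66 were controls. The brightest probe set stood for each of the 8251 genes. The gene IDs of all 62 member probe sets were found in a RefSeq table, with 0 changed symbols. The call rule needs 2-fold and one sign in all 4 array pairings and was run over all genes. It was tried on simulated data only with changes larger than 2-fold, in genes well above the floor. How it behaves near 2-fold or near the floor was not tested. With 1 biological sample a group, no p-value is given, and the number of arrays limits the precision.

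The members, roles, pathway lists and markers were chosen with earlier results of these data known. Every called member is named, members never above the floor on both arrays of a pool are listed by name, and up to 4 called genes are named for each pathway list and comparison, those with the largest differences. Alternatives covered the scaling, the floor, the filter, the choice of probe set, the fold and leaving out each array. Equal letters do not pair arrays in the labels, and the same-letter deviations of the pools correlated across 4838 genes at 0.04 (eccentric, control), -0.15 (isometric, control) and -0.05 (eccentric, isometric). Tables were computed in Python 3.11.15 with pandas 2.3.3 and numpy 2.4.6, and plots were drawn with matplotlib 3.10.9.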

Additional observations from a re-analysis of the deposited data

Results flagged for a closer look

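Jak2 and Stat5a stood on opposite sides of the control in the exercised pools. For Jak2 both eccentric arrays lay below both control arrays and both isometric arrays lay above them, with eccentric minus isometric at -0.76 on the log2 scale. The same held for Stat5a, at -0.71. The isometric arrays cleared the control narrowly: over the pairings, isometric minus control was 0.06 to 0.56 for Jak2 and 0.01 to 0.71 for Stat5a. How many of all genes show this pattern was not counted. A second Stat5a probe set put the isometric arrays above the control as well (0.34), but its eccentric arrays overlapped the control (-0.07). The difference between the effects was not tested, since each pool is 1 biological sample.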

How the results depend on the processing

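Under the alternatives, 309 values were read over the 26 gene and comparison pairs past 1.5-fold. No alternative reversed the direction of a called gene, and reversals were not counted for genes not called. Of the 309, 272 kept their call or, if not called, stayed uncalled and within the standard error from the arrays of each pool. Another 9 stayed uncalled but moved beyond that error, 8 lost the call and 20 gained it. For eccentric against control, 4 members were higher and 0 lower. A 1.5-fold rule gave 10 and 1, and leaving out single arrays gave 3 to 6 higher and 0 to 1 lower (Ifitm2, without control B). Over all genes, leaving out single arrays gave 289 to 365 higher, in place of 293, and 78 to 119 lower, in place of 60. The median of 0.19 was 0.033 with no filter on low values and 0.062 to 0.25 without single arrays (0.062 without control B, 0.11 without eccentric A). For isometric against control, 1 was higher and 0 lower. The 50th-percentile floor gave 0 higher, the 1.5-fold rule 3 and 1, the 20th-percentile floor 1 lower (Isg20), and leaving out single arrays 0 to 2 higher and 0 to 3 lower. Over all genes, leaving out single arrays gave 51 to 133 higher, in place of 51, and 31 to 73 lower, in place of 18. Without control A and isometric B it was 0 higher. The median of 0.06 was 0.11 with the 50th-percentile floor, 0.13 with all 4 arrays above the floor, 0.00 with no filter and 0.13 without control A and isometric B. For eccentric against isometric, 0 were higher and 0 lower. The 1.5-fold rule gave 9 and 2, leaving out single arrays 1 to 4 higher, and leaving out control A and isometric B 4. Over all genes, leaving out single arrays gave 119 to 154 higher, in place of 97. The median of 0.18 was 0.065 with no filter, 0.052 to 0.26 without single arrays and 0.052 without control A and isometric B. With the replicate letter as a block, through same-letter pairings only, the counts of higher and lower members stayed at 4 and 0, 1 and 0, and 0 and 0. Crossed letters, chosen after seeing the data for isometric against control, gave 1 and 0. Both settings keep the means and the fold and ask fewer pairings to agree in sign, so neither could remove a call. The causes of these shifts were not tested. Signals near the floor limit the low genes, and 11 members were below it on all 6 arrays.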

Other observations

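Probe sets that stand for several genes were left out of the counts, and 4 of them name a gene that fits the naming rule. The one for Mndal, Ifi211, Ifi205 and Ifi204, genes of the p200 family, read 384 and 438 in the eccentric and 334 and 143 in the isometric pool, with eccentric minus isometric at 0.91 (0.20 to 1.61 over the array pairings). Its difference from control was 0.32 after eccentric contractions, with overlapping arrays. The one for Ifi203 and related sequences lay below control on all exercised arrays, at -0.50 after eccentric and -0.63 after isometric contractions on the log2 scale. Those for Gbp8 and Gbp4, and for Ifi202b with a further locus, were below the floor on all 6 arrays.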
